A study of Mus musculus with 9 samples.

Results

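The collagen genes were followed through the primary tumours of 3 mouse mammary cancer models. A gene was counted as a collagen when the mouse symbol of its Entrez number had the form Col, number, a, number. By this rule 35 of the 14108 listed genes were collagens. They comprised 10 fibrillar collagens, 6 basement membrane collagens, 6 fibril-associated collagens with interrupted triple helices (FACIT) and 13 collagens of other classes. A further 10 collagens (*Col24a1*, *Col4a3*, *Col4a6*, *Col9a1*, *Col9a2*, *Col19a1*, *Col21a1*, *Col6a4*, *Col6a6* and *Col10a1*) were not among the listed genes. Only 44 of these 45 collagens had a mouse RefSeq symbol, so not all of the 10 could have been listed. Of the 35 collagens, 33 passed the filter on low counts and were tested, while *Col13a1* and *Col28a1* were not.

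Collagens are trimers of polypeptide chains wound into a triple helix, and each gene encodes 1 type of chain. Fibrillar collagens assemble into the fibrils that give tissue its tensile strength, and type I collagen is their main form in the stroma of mammary tumours. Type IV collagen forms the sheet-like network of basement membranes, which epithelial tumour cells must breach. FACIT collagens sit on the surface of fibrils, type VI collagen forms beaded filaments beside cells, and a few collagens span the cell membrane. Collagens in a tumour are mostly laid down by fibroblasts, although mesenchymal-like tumour cells also transcribe them.

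The 9 tumours comprised 3 of each model. HR1 (LB-mHR1) is a non-metastatic line made from a mammary tumour of a transgenic mouse that expressed *PIK3CA* H1047R under the CAG promoter. The labels call the group HR1 and do not say whether its tumours grew from the parental line or from its control cells of the transposon screen. LM1 and LM9 are lines grown out of lung metastases in NOD/SCID mice that bore tumours of HR1 cells carrying the doxycycline-inducible *piggyBac* transposon, so all 3 models shared the *PIK3CA* transgene. For each tumour 250000 cells were placed in the mammary fat pad of a female NOD/SCID mouse aged 4 to 8 weeks, a strain without mature lymphocytes. Resected tumours were sorted for GFP-positive cells and sequenced as stranded mRNA libraries. The study classed LM1 and LM9 as *Nfib* high-expression and HR1 as *Nfib* low-expression models. Each model is 1 line, the labels do not say that replicates came from separate mice, and p-values therefore measure only the spread between these samples. Tumour and host cells are both mouse cells, so reads of the 2 cannot be told apart, and fewer cells of a type cannot be told apart from less RNA per cell.

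Total counts on genes ranged from 32393958 to 46681945 per tumour, and 3 counts, taken as the floor, corresponded to 0.0630 to 0.0997 CPM, the usual count relative to library size, after normalization by the trimmed mean of M-values (TMM). HR1 replicate 1 stood apart from the other HR1 tumours. The correlation of log CPM between HR1 tumours was 0.878 to 0.961, against 0.986 to 0.991 within LM1 and 0.990 to 0.991 within LM9. *Nfib* stood at 1343 CPM in HR1 replicate 1 and at 23.9 and 18.3 CPM in HR1 replicates 2 and 3, compared with 579 to 791 CPM in LM1 and 421 to 583 CPM in LM9. In this gene HR1 replicate 1 went against the class of its model, and the comparisons with HR1 were therefore also made without it. Of 12 fibroblast markers, all listed, 11 were lower in the LM tumours together (23.7% of all genes were lower), and 9 were lower and 1 higher without HR1 replicate 1 (28.5% and 27.5% of all genes). In LM1 alone 7 were lower (18.7% of all genes) and in LM9 alone 10 (21.9%), and their summed level was 21689, 3497 and 2676 CPM in HR1, 1523 to 1771 CPM in LM1 and 504 to 651 CPM in LM9. The fibroblast proteoglycan gene *Dcn* alone reached 17605 CPM in HR1 replicate 1, and it was at 432 and 329 CPM in the other HR1 tumours, below LM1 (562 to 645 CPM) and above LM9 (15.9 to 76.8 CPM). Of 10 endothelial markers 8 were listed, with summed levels of 11.3 to 37.8 CPM in HR1, 167 to 230 CPM in LM1 and 261 to 298 CPM in LM9, where most came from *Cdh5*. In the LM tumours together 2 of the 8 were higher and 5 lower, and the rise in the sum rested on *Cdh5* (136 to 254 CPM in the LM tumours, at most 13.4 CPM in HR1) and *Kdr* (22.3 to 37.3 CPM, at most 1.73 CPM in HR1). The 6 pericyte markers summed to 6.92 to 156 CPM in HR1 and 45.9 to 68.4 CPM in the LM tumours. Of these, 1 was lower in the LM tumours together (4 without HR1 replicate 1). In LM9 alone 4 were lower (21.9% of all genes), and 6 without HR1 replicate 1 (27.8%). In LM1 alone 1 was higher and none lower, and without HR1 replicate 1, 1 was higher and 2 lower. *Kcnj8* was at 26.7 to 35.8 CPM in LM1, against at most 1.13 CPM in HR1. The 8 listed of 10 leukocyte markers, of which 5 were lower in the LM tumours together and none higher, summed to 144 to 587 CPM in HR1, 111 to 120 CPM in LM1 and 180 to 206 CPM in LM9. The 6 listed of 12 epithelial markers summed to 7.55 to 121 CPM in HR1, 158 to 181 CPM in LM1 and 14.4 to 18.0 CPM in LM9. *Krt14* was the main one in the LM tumours, at 152 to 175 CPM in LM1 against at most 109 CPM in HR1. Of the 6, 2 were lower and none higher in the LM tumours together (23.7% and 19.9% of all genes). In LM1 alone and in LM9 alone 1 was lower and none higher. Without HR1 replicate 1, 3 were higher and 2 lower in LM1 (52.8% of all genes called). In LM9 2 were then lower and none higher (55.7% called). The endothelial marker *Pecam1* (at most 6.42 CPM), the pericyte marker *Rgs5* (at most 0.901 CPM) and the leukocyte marker *Ptprc* (at most 11.3 CPM) were low in every tumour, while other members of the same lists were higher, such as *Cdh5*, *Notch3* (up to 143 CPM) and *Lyz2* (up to 208 CPM). The epithelial markers *Epcam* and *Cdh1* reached at most 4.49 and 1.20 CPM, *Krt14* reached 175 CPM, and *Krt8* was not listed. The part of these cell types in the collagen values was not tested.

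The bases upstream of the fibrillar collagen genes that differed from HR1 in the same direction in both LM models are shown, to set their start regions beside their values. There were 7 such genes, 6 lower and 1 (*Col5a3*) higher, and RefSeq sequences (GRCm38.p6) were held for 5 of them (27 of the 35 collagens). The window was the 250 bases before the RefSeq start, of which the longest stretch outside annotated exons is printed. Capitals mark matches to 4 motifs on either strand. These were the nuclear factor I (NFI) half-site TTGGCA, the GC box with the letters GGGCGG, the box named CCAAT after its letters, which can overlap an NFI half-site, and the sequence TATAAA of the core promoter. The stretch of *Col1a2* ends 126 bases before the start. For *Col1a2* and *Col27a1* the stretch lies inside the GENCODE M21 gene, which begins further upstream (at 4504814 and 63214004), so positions count from the RefSeq start only, while the other 3 stretches adjoin the GENCODE start. The first 4 genes were lower and *Col5a3* was higher in LM1 and LM9. The stretches lay at chr6:4505368-4505492 (*Col1a2*, plus strand), chr1:45311288-45311537 (*Col3a1*, plus strand), chr3:114030290-114030539 (*Col11a1*, plus strand), chr4:63215162-63215411 (*Col27a1*, plus strand) and chr9:20815068-20815317 (*Col5a3*, minus strand).
Col1a2: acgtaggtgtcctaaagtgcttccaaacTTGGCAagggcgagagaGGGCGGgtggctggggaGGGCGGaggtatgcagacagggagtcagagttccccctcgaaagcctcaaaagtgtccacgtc
Col3a1: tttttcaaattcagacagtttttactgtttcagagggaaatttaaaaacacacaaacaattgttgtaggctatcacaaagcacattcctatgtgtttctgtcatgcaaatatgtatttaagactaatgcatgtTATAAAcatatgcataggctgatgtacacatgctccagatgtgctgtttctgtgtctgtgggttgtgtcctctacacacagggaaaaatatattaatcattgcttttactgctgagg
Col11a1: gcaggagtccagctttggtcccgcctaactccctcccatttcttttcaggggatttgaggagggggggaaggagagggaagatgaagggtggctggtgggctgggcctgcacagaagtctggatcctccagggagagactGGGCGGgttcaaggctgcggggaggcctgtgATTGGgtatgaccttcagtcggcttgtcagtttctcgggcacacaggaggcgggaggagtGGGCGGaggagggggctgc
Col27a1: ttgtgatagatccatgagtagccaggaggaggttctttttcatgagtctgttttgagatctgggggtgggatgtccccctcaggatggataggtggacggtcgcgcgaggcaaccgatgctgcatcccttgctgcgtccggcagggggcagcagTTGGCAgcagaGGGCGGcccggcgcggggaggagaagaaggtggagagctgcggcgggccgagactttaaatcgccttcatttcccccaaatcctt
Col5a3: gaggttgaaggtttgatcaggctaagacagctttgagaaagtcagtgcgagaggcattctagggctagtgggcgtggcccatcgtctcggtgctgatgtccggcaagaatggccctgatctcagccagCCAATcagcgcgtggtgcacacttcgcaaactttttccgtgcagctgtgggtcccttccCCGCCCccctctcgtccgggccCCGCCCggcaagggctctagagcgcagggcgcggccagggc

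The NFI half-site occurred in 6 of the 27 collagen windows (22.2%) and in 12.3% of 32851 windows of all genes. It lay 222 bases upstream of the start of *Col1a2* and 96 bases upstream of that of *Col27a1*, and its letters were not found in the windows of *Col3a1*, *Col11a1* and *Col5a3*. The full palindrome, 2 half-sites facing each other across 5 bases, was found in 0.0365% of all windows and in no collagen window. GC boxes were found in 63.0% of collagen windows and 32.7% of all windows, and CCAAT boxes in 40.7% and 33.8%. The collagen windows were also richer in G and C, with a median of 60.8% against 52.4% in all windows, and the part of base composition in these shares was not tested. The window of *Col3a1* differed from the other 4 in holding the letters TATAAA and no GC box, with a GC content of 35.2% against 59.6 to 62.8% in the other 4. A match of letters is a description of the sequence and not evidence of binding.

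Collagen genes took up 3.27%, 3.35% and 3.85% of all counts in the HR1 tumours. The share was 2.04%, 2.50% and 1.75% in LM1 and 2.06%, 1.73% and 1.75% in LM9. Every HR1 tumour was thus above every LM tumour, HR1 replicate 1 included. The 5 most counted collagens of a tumour made up 83.2 to 91.4% of its collagen counts. *Col1a1* was the most counted collagen in 8 of the 9 tumours and *Col3a1* in HR1 replicate 2. Basement membrane collagens together reached only 0.0142 to 0.0600% of a library and FACIT collagens 0.0357 to 0.0964%.

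**Figure D1:**
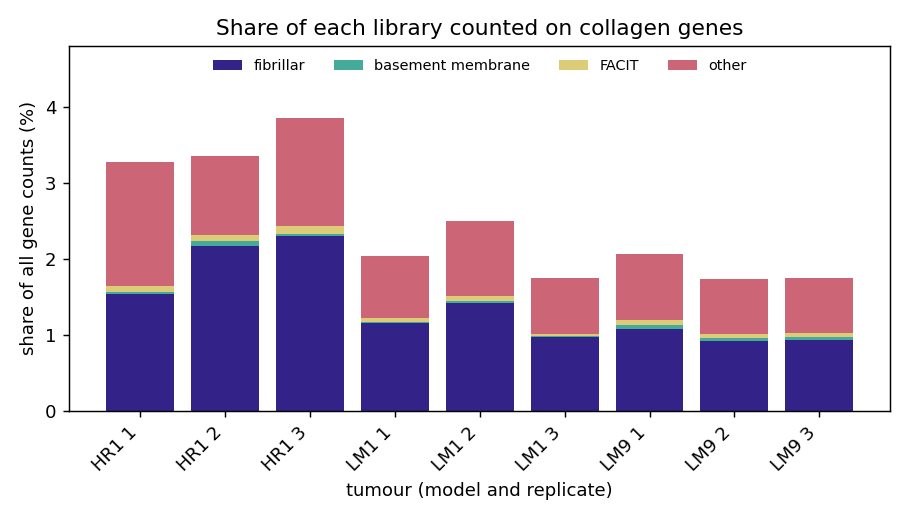
Share of all gene counts (%, y axis) taken by the 4 classes of collagen genes in each tumour (x axis, model and replicate), stacked by class. The HR1 tumours reach 3.27 to 3.85% and the LM tumours 1.73 to 2.50%, and the fibrillar and other classes make up nearly all of each bar.

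Levels were compared between genes as CPM per kilobase of exon. On that scale the mean over the 9 tumours was highest for *Col1a1* (1429), the main chain of type I collagen, followed by *Col6a1* (854), *Col3a1* (738) and *Col6a2* (529). Next came *Col6a3* (198), *Col8a1* (124), *Col1a2* (94.1), *Col5a1* (79.9), *Col8a2* (50.9) and *Col16a1* (48.3). The ranges over the 9 tumours of each gene and the next in this order overlapped, and the mean of *Col1a2* rested on HR1 replicates 2 and 3. In each tumour 22 to 27 of the 35 collagens reached 1 CPM.

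**Figure D2:**
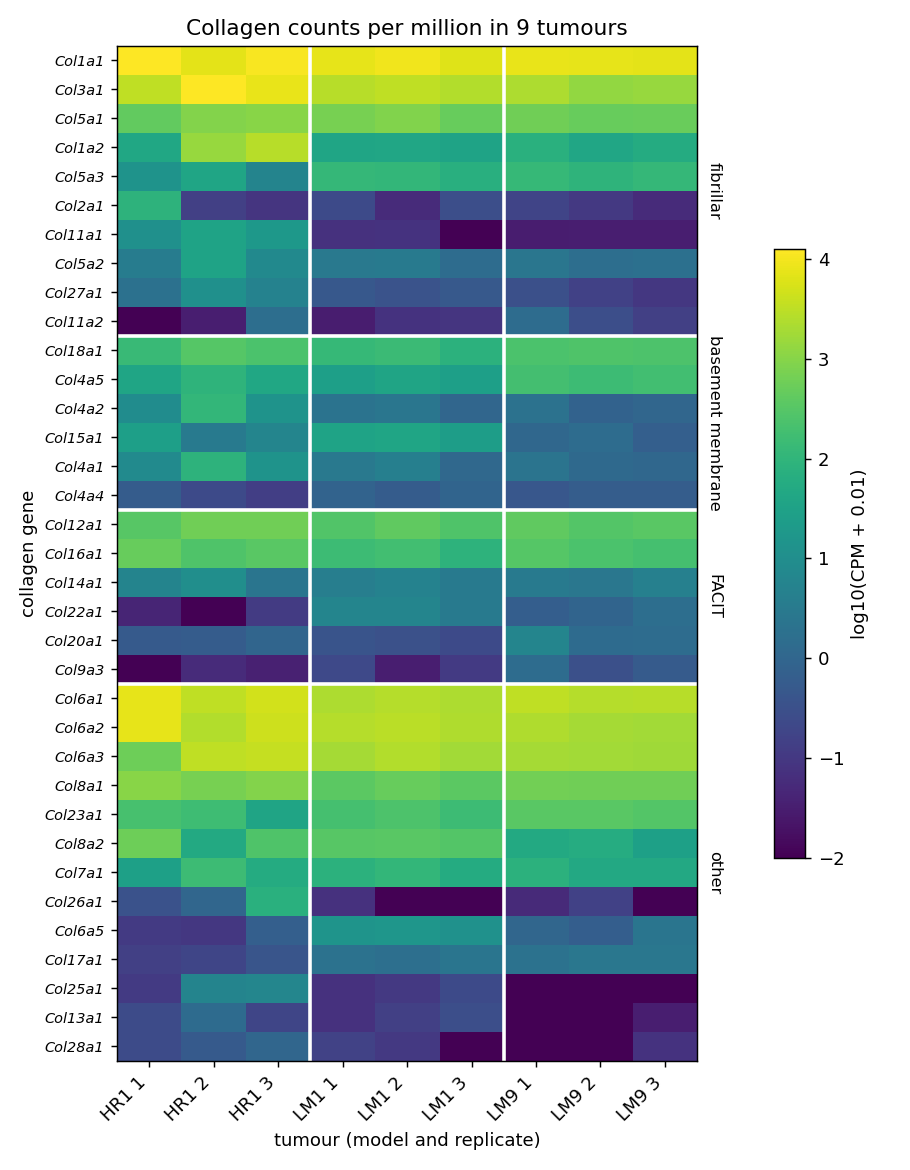
Level of each of the 35 collagen genes (rows, by class and mean level) in each of the 9 tumours (columns), as log10 of CPM plus 0.01. *Col1a1* is bright in all 9 tumours, *Col1a2* is bright only in HR1 replicates 2 and 3, and *Col11a1* is dark in all LM tumours.

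The first question was how the *Nfib* high-expression LM tumours differed from HR1. Comparing LM1 and LM9 together with HR1, 14 of the 33 tested collagens were lower and 5 were higher by the quasi-likelihood test of edgeR, with an adjusted p-value under 0.05. The 19 called were 57.6% of the collagens, against 43.6% of all 14086 tested genes (23.7% lower and 19.9% higher). The median log2 fold change was -0.81 over the collagens and -0.05 over all genes. By class, 6 of 10 fibrillar collagens were lower and 1 higher, 2 of 6 basement membrane collagens were lower, 1 of 6 FACIT collagens was lower and 2 were higher, and of 11 tested collagens of other classes 5 were lower and 2 higher. The groups did not overlap for 12 of the 19, and 28.3% of all genes were called without overlap. Without HR1 replicate 1, 35 collagens passed the filter. Of these 19 were lower and 7 higher (74.3%), while 56.0% of all genes were then called. Of the 19 calls 18 were also made without that tumour, and that of *Col2a1* was not.

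Each LM model was also compared with HR1 on its own, against the same 3 HR1 tumours. In LM1, 14 collagens were lower and 4 higher (54.5% called, against 35.5% of all genes, 18.7% lower and 16.7% higher), 15 of them without overlap (34.0% of all genes). The count fell from 18 to 10 without LM1 replicate 1 (22.1% of all genes then called) and to 11 without LM1 replicate 3 (26.4%), and was 23 without HR1 replicate 1 (52.8%). In LM9, 15 were lower and 7 higher (66.7%, against 42.3% of all genes, 21.9% lower and 20.4% higher), 18 of them without overlap (40.5% of all genes), and leaving out 1 tumour at a time gave 16 to 26 called (26.7 to 55.7% of all genes). The median log2 fold change was -0.90 in LM1 and -0.55 in LM9. *Col1a2*, *Col2a1*, *Col3a1*, *Col5a2*, *Col11a1*, *Col27a1*, *Col4a1*, *Col4a2*, *Col6a1*, *Col8a1*, *Col25a1* and *Col26a1* were lower in both models. *Col5a3*, *Col22a1*, *Col6a5* and *Col17a1* were higher in both. The calls in both models held in all 15 other fits for *Col11a1*, *Col27a1*, *Col4a2*, *Col5a3*, *Col22a1* and *Col17a1*, and for the other 10 genes at least 1 fit lost a call. The least stable were *Col2a1*, called in 5 of the 15 in LM1 and 7 in LM9, and the LM9 calls of *Col6a5* (6 of 15) and *Col8a1* (7 of 15). Without HR1 replicate 1 *Col2a1* was called in neither model, and *Col6a5* (1.83) and *Col8a1* (-0.39) were not called in LM9.

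**Figure D3:**
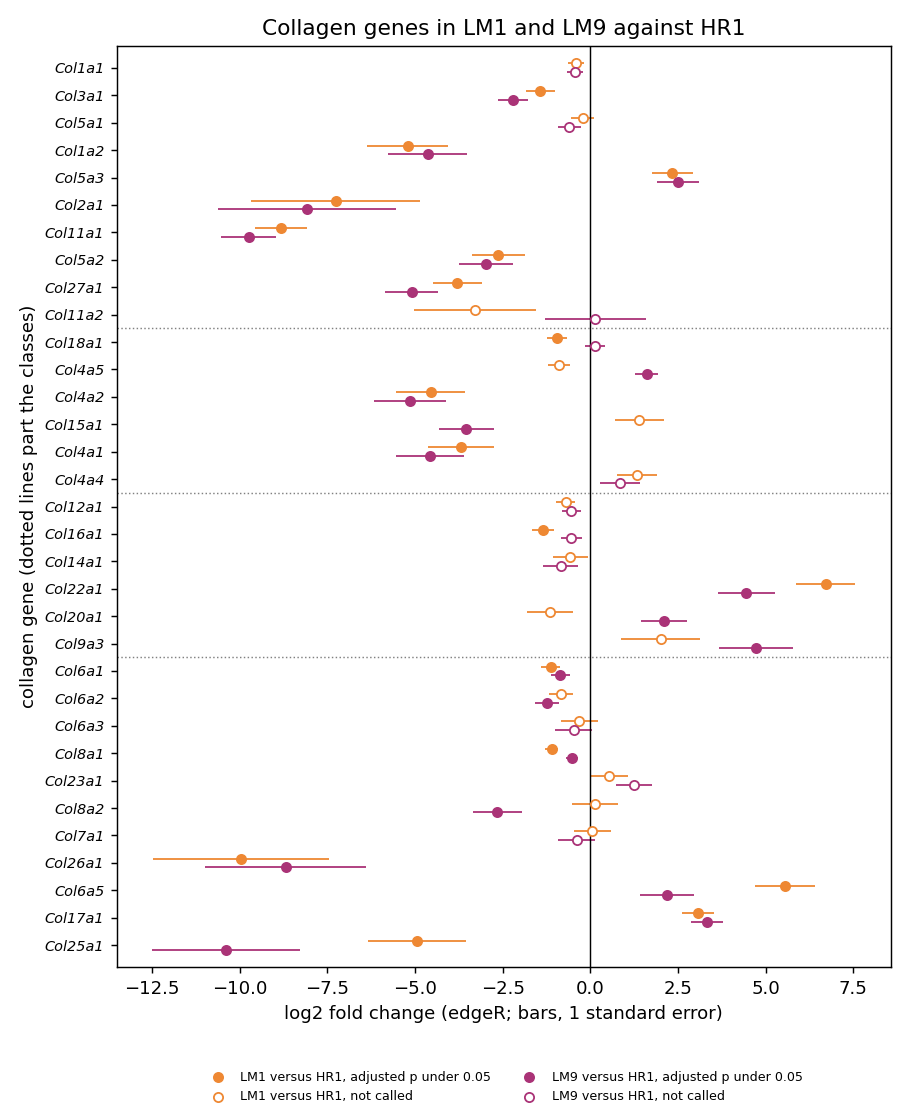
Log2 fold change of each tested collagen (rows, by class and mean level) in LM1 and in LM9 versus HR1, with bars of 1 standard error and filled points for an adjusted p-value under 0.05. Both comparisons share the 3 HR1 tumours. *Col11a1* lies at -8.82 and -9.75, *Col1a1* lies at -0.41 and -0.45, and *Col15a1* and *Col4a5* lie on opposite sides of 0 in LM1 and LM9.

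Type I collagen is normally a trimer of 2 alpha 1 chains, from *Col1a1* (chr11:94936224-94953042), and 1 alpha 2 chain, from *Col1a2* (chr6:4504814-4541544). The level of *Col1a1* was 12670, 7033 and 11022 CPM in HR1, 7467, 9245 and 6358 CPM in LM1 and 7742, 7477 and 7239 CPM in LM9. The groups overlapped, and the difference between the LM tumours and HR1 was not called (log2 fold change -0.43 ± 0.20 SE, adjusted p = 0.106), although it was without HR1 replicate 2 (-0.64). *Col1a2*, in contrast, was at 44.2, 1472 and 2726 CPM in HR1, at 39.0, 40.5 and 35.0 CPM in LM1 and at 73.2, 40.5 and 57.0 CPM in LM9. HR1 replicates 2 and 3 were thus far above every other tumour, and HR1 replicate 1 lay within the range of LM9. *Col1a2* was 30.3-fold lower in the LM tumours (log2 fold change -4.92 ± 0.85, adjusted p = 0.00224). The log2 fold change was -5.49 without HR1 replicate 1 and -4.02 without HR1 replicate 3.

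The balance of the 2 chains followed from these levels. Per kilobase of exon, *Col1a1* exceeded *Col1a2* 4.31-fold in HR1 replicate 2 and 3.65-fold in HR1 replicate 3. The ratio was 164 to 206 in LM1, 95.4 to 166 in LM9 and 259 in HR1 replicate 1. *Col3a1* (chr1:45311538-45349706), whose product forms homotrimers that mix with type I fibrils, was at 3338, 12048 and 7920 CPM in HR1, 2790, 3285 and 2568 CPM in LM1 and 2306, 1300 and 1423 CPM in LM9. All 6 LM tumours were below all 3 HR1 tumours, HR1 replicate 1 narrowly so. The fall was 3.54-fold (log2 fold change -1.82 ± 0.34, adjusted p = 0.00342), and 4.52-fold without HR1 replicate 1.

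**Figure D4:**
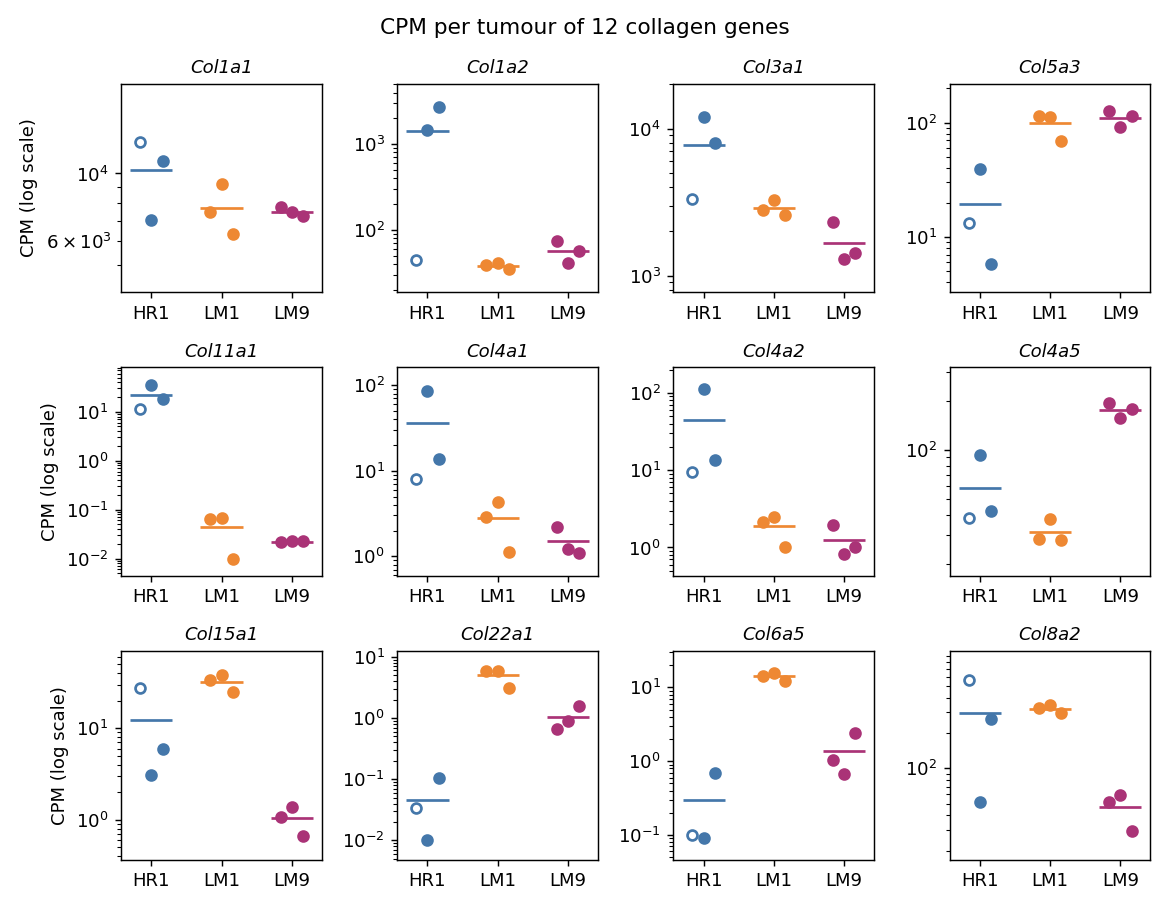
CPM (log scale) of 12 collagen genes in each tumour, with a line at the mean of the 3 tumours of a model and an open point for HR1 replicate 1. Values under 0.01 CPM are drawn at 0.01. The open point lies with the LM tumours for *Col1a2*, with the other HR1 tumours for *Col11a1*, and with LM1 for *Col15a1*.

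The minor fibrillar collagens, which co-assemble with types I and II and limit fibril width, went different ways. *Col5a1* was at 429, 957 and 1018 CPM in HR1 and 474 to 866 CPM in the LM tumours, and was not called (adjusted p = 0.258), although it was without HR1 replicate 1 (-0.71). Its partner chain *Col5a2* was scarce, at 3.66, 34.4 and 7.90 CPM in HR1, 1.45 to 3.04 CPM in LM1 and 1.56 to 2.49 CPM in LM9. No LM tumour reached an HR1 tumour, and *Col5a2* was 7.01-fold lower (log2 fold change -2.81 ± 0.60, adjusted p = 0.00596), with a log2 fold change of -3.27 without HR1 replicate 1 and -1.40 without HR1 replicate 2. *Col5a2* lies 24614 bases from *Col3a1* on chromosome 1, on the other strand. *Col5a1* exceeded *Col5a2* 21.9-fold to 102-fold per kilobase in HR1, 185-fold to 269-fold in LM1 and 192-fold to 240-fold in LM9.

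*Col5a3* (chr9:20770050-20815067), another type V chain, moved the other way. It was at 13.4, 39.2 and 5.76 CPM in HR1, 114, 112 and 69.5 CPM in LM1 and 126, 91.6 and 115 CPM in LM9. It was 5.37-fold higher in the LM tumours, which lay above all HR1 tumours (log2 fold change 2.43 ± 0.56, adjusted p = 0.00831). The log2 fold change was 2.22 without HR1 replicate 1 and 3.45 without HR1 replicate 2.

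*Col11a1* (chr3:114030540-114220718), a type XI chain of cartilage-like fibrils, was nearly absent from the LM tumours. It had 348, 1582 and 699 counts in HR1, 3, 3 and 0 counts in LM1 and 1 count in each LM9 tumour. With 2629 counts in HR1, the level in HR1 was 507-fold that in LM1 (95% counting interval 233 to 1380) and 1040-fold that in LM9 (356 to 5050). The intervals cover counting error only. The adjusted p-value against both LM models was 1.94e-05, and HR1 replicate 1 kept to the HR1 side.

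*Col27a1*, a short fibrillar collagen, was at 1.90, 11.4 and 5.17 CPM in HR1, 0.362 to 0.508 CPM in LM1 and 0.0900 to 0.301 CPM in LM9. It was 21.8-fold lower in the LM tumours, with no overlap (log2 fold change -4.44 ± 0.55, adjusted p = 0.000495; -4.86 without HR1 replicate 1 and -3.64 without HR1 replicate 2). *Col2a1*, the cartilage fibril chain, rested on 1 tumour: it had 2596 counts in HR1 replicate 1 and 2 to 11 counts in the other 8 tumours. Its called decrease (log2 fold change -7.67) became 0.36, not called, without HR1 replicate 1. *Col11a2* had 63 counts in HR1 replicate 3, 66 in LM9 replicate 1 and 12 or fewer elsewhere, and was not called in the LM tumours together. Without HR1 replicate 3 it was called higher in LM9 than in HR1 (5.25) and than in LM1 (3.43).

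Among the basement membrane collagens, the 2 chains of the ubiquitous type IV network fell together. *Col4a1* was at 8.11, 86.5 and 13.9 CPM in HR1, 2.92, 4.33 and 1.12 CPM in LM1 and 2.21, 1.21 and 1.10 CPM in LM9. *Col4a2* was at 9.38, 111 and 13.6 CPM in HR1, 2.14, 2.51 and 1.02 CPM in LM1 and 1.95, 0.824 and 1.01 CPM in LM9. HR1 replicate 2 was highest for both genes, and no LM tumour overlapped with HR1 for either. *Col4a1* was 17.6-fold lower (log2 fold change -4.14 ± 0.72, adjusted p = 0.00237) and *Col4a2* 28.8-fold lower (-4.85 ± 0.76, adjusted p = 0.00139). Without HR1 replicate 2 the log2 fold changes were -2.42 and -2.89, and without HR1 replicate 1 they were -4.60 and -5.32.

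The 2 genes lie head to head on chromosome 8, with *Col4a1* at 11198423 to 11312826 on the minus strand and *Col4a2* at 11312805 to 11449287 on the plus strand. The annotated genes overlap by 22 bases, and since the strand setting of the counting was not stated, reads in those bases could count for either gene. The ratio of *Col4a1* to *Col4a2* per kilobase was 0.759 to 0.997 in HR1, 1.07 to 1.68 in LM1 and 1.06 to 1.44 in LM9. Every LM tumour was thus above every HR1 tumour, by a narrow margin. The lowest LM ratios rested on 49 and 45 counts of the 2 genes in LM9 replicate 3 and 44 and 40 in LM1 replicate 3. Counting error of this ratio was not tested.

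*Col4a5*, a type IV chain of specialised basement membranes such as that of the kidney glomerulus, behaved unlike *Col4a1* and *Col4a2*. It was at 38.4, 93.4 and 42.4 CPM in HR1, 28.3, 37.5 and 27.9 CPM in LM1 and 195, 157 and 179 CPM in LM9. LM9 was above all other tumours, and LM1 below all HR1 tumours by a small margin. In LM9 it was 3.05-fold higher than in HR1 (log2 fold change 1.61 ± 0.33, adjusted p = 0.00521; 1.38 without HR1 replicate 1), and in LM1 the change was not called (-0.90 ± 0.32, adjusted p = 0.0574), although it was called without HR1 replicate 1 (-1.11) or replicate 3 (-1.08). *Col4a5* exceeded *Col4a1* per kilobase 1.09-fold to 4.79-fold in HR1, 8.76-fold to 25.3-fold in LM1 and 89.0-fold to 165-fold in LM9. *Col4a4* stayed under 1 CPM in every tumour and was not called, except without HR1 replicate 1 (1.88).

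The 2 multiplexins, basement membrane collagens with carbohydrate chains, differed between the LM models. *Col15a1* was at 27.9, 3.08 and 5.92 CPM in HR1, 33.8, 37.8 and 24.99 CPM in LM1 and 1.07, 1.40 and 0.675 CPM in LM9. HR1 replicate 1 lay within the LM1 range, and LM9 was below all other tumours. In LM9 it was 11.7-fold lower than in HR1 (log2 fold change -3.54 ± 0.78, adjusted p = 0.00750), and 4.27-fold lower without HR1 replicate 1. In LM1 the difference from HR1 was not called (1.39 ± 0.70, adjusted p = 0.152), but was called without HR1 replicate 1 (2.85). *Col18a1*, the precursor of endostatin, was at 138, 305 and 235 CPM in HR1, 84.1 to 142 CPM in LM1 and 234 to 257 CPM in LM9. It was lower in LM1 (log2 fold change -0.96 ± 0.29, adjusted p = 0.0303; -1.21 without HR1 replicate 1), a call lost without HR1 replicate 2 (-0.68) or 3 (-0.93), LM1 replicate 1 (-1.0) or 3 (-0.77), or LM9 replicate 2 (-0.95). The LM tumours together were not called (adjusted p = 0.203), except without HR1 replicate 1 (-0.66).

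Of the FACIT collagens, *Col12a1* and *Col16a1* were the more abundant. The scarce *Col22a1* had the largest log2 fold change of this class against HR1 in LM1 and in the LM tumours together. *Col12a1* was at 329 to 609 CPM in HR1 and 257 to 409 CPM in the LM tumours and narrowly missed the threshold (log2 fold change -0.62 ± 0.23, adjusted p = 0.0544); it was called without HR1 replicate 1 (-0.85) or LM1 replicate 2 (-0.75), with the relative log expression (RLE) size factors of edgeR and with DESeq2. *Col16a1* was at 482, 269 and 340 CPM in HR1, 156, 181 and 88.8 CPM in LM1 and 304, 239 and 205 CPM in LM9. It was 1.93-fold lower in the LM tumours (log2 fold change -0.95 ± 0.25, adjusted p = 0.0161), with LM1 below all HR1 tumours and LM9 overlapping them, and the log2 fold change was -0.69 without HR1 replicate 1. *Col22a1*, found at tissue junctions, had 1, 0 and 4 counts in HR1, 285, 261 and 124 in LM1 and 31, 39 and 69 in LM9. The level in LM1 was 116-fold that in HR1 (95% counting interval 49.4 to 358) and the level in LM9 was 23.4-fold that in HR1 (9.79 to 73.2), with an adjusted p-value of 0.000867 for the LM tumours together. Its log2 fold change was 5.58, and it was 5.47 without HR1 replicate 1, 4.95 without HR1 replicate 2 and 7.10 without HR1 replicate 3. *Col9a3*, *Col20a1* and *Col14a1* had group means of at most 6.13 CPM, and *Col14a1* was called (-1.09) only without HR1 replicate 3. *Col9a3*, with at most 66 counts, was called higher in the LM tumours together (log2 fold change 3.37, adjusted p = 0.0258). This call was lost without HR1 replicate 3 (3.36) or LM1 replicate 1 (2.94) and with the replicate number as a block. The log2 fold change was 2.95 without HR1 replicate 1 and 4.10 without HR1 replicate 2. In LM9 alone it was 4.73 (adjusted p = 0.00788), with no overlap, and was called in all 15 other fits. In LM1 alone it was not called (2.01, adjusted p = 0.197), nor in any of the other fits. Of the 3046 exon bases of *Col9a3*, 234 overlap *Tcfl5* on the other strand, and since the strand setting was not stated, reads there could come from either gene.

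Type VI collagen is built from an alpha 1, an alpha 2 and an additional, longer chain. *Col6a1* was at 7554, 3337 and 4779 CPM in HR1, 2219 to 2648 CPM in LM1 and 2663 to 3227 CPM in LM9. No LM tumour reached HR1, and it was 1.99-fold lower (log2 fold change -0.99 ± 0.23, adjusted p = 0.00784). *Col6a2*, 85161 bases away on chromosome 10, was at 7574, 2557 and 4272 CPM in HR1, 2364 to 3022 CPM in LM1 and 1774 to 2390 CPM in LM9. It was 2.05-fold lower, with overlap (log2 fold change -1.04 ± 0.29, adjusted p = 0.0183). HR1 replicate 1 was highest for both, and without it the decreases were 1.54-fold and 1.45-fold.

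*Col6a3*, the longer chain, was lowest in HR1 replicate 1, the HR1 tumour in which *Col6a1* and *Col6a2* were highest. It was at 580, 3391 and 3709 CPM in HR1, 1788 to 2503 CPM in LM1 and 1752 to 1926 CPM in LM9. It was not called (log2 fold change -0.40 ± 0.46, adjusted p = 0.511) but was called without HR1 replicate 1 (-0.86), when the groups did not overlap. The ratio of *Col6a3* to *Col6a1* per kilobase was 0.0290 in HR1 replicate 1 and 0.226 to 0.384 in the other 8 tumours. *Col6a5*, an alternative to *Col6a3*, was at 0.0998, 0.0901 and 0.695 CPM in HR1, 14.4, 15.9 and 12.0 CPM in LM1 and 1.03, 0.664 and 2.41 CPM in LM9. It was 14.6-fold higher in the LM tumours (log2 fold change 3.87 ± 0.77, adjusted p = 0.00426; 3.51 without HR1 replicate 1 and 5.50 without HR1 replicate 3), with LM9 replicate 2 inside the HR1 range. Of its 50-base windows 3.42% were shared with *Col6a6*.

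**Figure D5:**
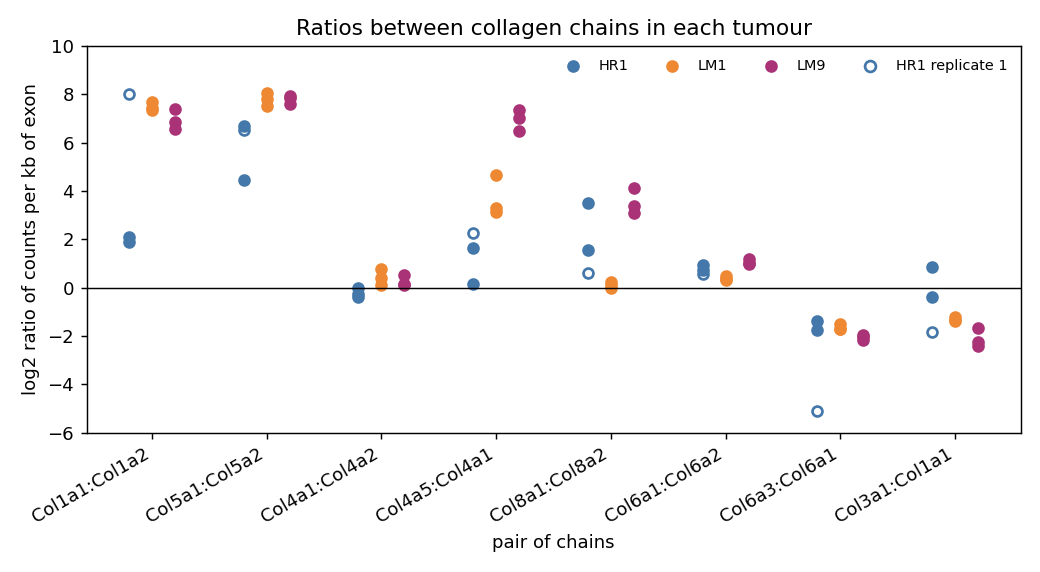
Log2 ratio of counts per kilobase of exon between pairs of collagen chains in each tumour, with 3 points per model and an open point for HR1 replicate 1. *Col1a1* to *Col1a2* separates HR1 replicates 2 and 3 from the other 7 tumours, and *Col6a3* to *Col6a1* separates HR1 replicate 1 from the other 8.

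Type VIII collagen is a short-chain network collagen of endothelial and mesenchymal matrices. *Col8a1* was at 1030, 693 and 914 CPM in HR1, 373 to 481 CPM in LM1 and 598 to 633 CPM in LM9. It was 1.75-fold lower in the LM tumours, with no overlap (log2 fold change -0.81 ± 0.15, adjusted p = 0.00296; -0.68 without HR1 replicate 1). *Col8a2* was at 569, 52.0 and 261 CPM in HR1, 324, 345 and 293 CPM in LM1 and 51.4, 59.8 and 29.1 CPM in LM9. HR1 ranged widely and overlapped with both LM models, and the LM tumours together were not called (adjusted p = 0.0941), although they were without HR1 replicate 2 (-1.76) or with DESeq2. In LM9 alone it was 6.28-fold lower than in HR1 (log2 fold change -2.65 ± 0.70, adjusted p = 0.0164; -1.74 without HR1 replicate 1), a call lost without LM9 replicate 1 (-2.72) or 3 (-2.40). The ratio of *Col8a1* to *Col8a2* per kilobase was 0.989 to 1.18 in LM1, 8.47 to 17.6 in LM9 and 1.54 to 11.3 in HR1.

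The collagens that span the cell membrane were scarce, apart from *Col23a1*. *Col17a1*, a hemidesmosome collagen of basal epithelium, was at 0.133, 0.180 and 0.386 CPM in HR1, 1.68 to 2.29 CPM in LM1 and 2.02 to 2.59 CPM in LM9. It was 9.20-fold higher in the LM tumours, with no overlap (log2 fold change 3.20 ± 0.43, adjusted p = 0.000640; 2.96 without HR1 replicate 1). *Col25a1*, first found in amyloid plaques, had 3, 249 and 240 counts in HR1, 3 to 9 counts in LM1 and 0 counts in every LM9 tumour. It was at least 195-fold lower in LM9 than in HR1, against a floor of 3 counts over the group, and HR1 replicate 1 was within the LM1 counts. In LM1 the log2 fold change was -4.95 (adjusted p = 0.0316; -5.53 without HR1 replicate 1), and the call was lost without HR1 replicate 2 (-4.62) or 3 (-4.49) or without LM1 replicate 1 (-4.62), 2 (-4.78) or 3 (-5.64). *Col23a1* was at 214, 164 and 36.3 CPM in HR1, 150 to 250 CPM in LM1 and 289 to 347 CPM in LM9. In the LM tumours together it was not called (adjusted p = 0.149), but was without HR1 replicate 1 (1.37). LM9 lay above all HR1 tumours and was not called (1.24 ± 0.52, adjusted p = 0.0847). In 5 of the 15 other fits *Col23a1* was called in LM9, among them without HR1 replicate 1 (1.71) or 3 (0.79). *Col13a1*, not tested, had 74 counts over the HR1 tumours and 1 count over the LM9 tumours. *Col28a1*, also not tested, had 69 counts over the HR1 tumours and 3 over the LM9 tumours. Without the filter on low counts both were called lower in the LM tumours together.

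*Col26a1*, a small secreted collagen, had 2956 counts in HR1 replicate 3 and 10 and 45 counts in HR1 replicates 1 and 2. It had 3 counts over the LM1 tumours and 8 over the LM9 tumours. The log2 fold change of the LM tumours together was -9.33, and it was -9.91 without HR1 replicate 1, -4.10 without HR1 replicate 3, -10.87 without LM1 replicate 1 and -10.00 without LM9 replicate 2. The call was lost with DESeq2 and with limma-voom. *Col7a1*, the anchoring fibril of the skin and other stratified epithelia, was at 30.2 to 150 CPM in HR1 and 49.3 to 107 CPM in the LM tumours and was not called.

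The other question was whether collagens set LM9 apart from LM1. Comparing LM9 with LM1, 4 collagens were higher and 4 lower (24.2% of those tested, against 22.0% of all genes, 11.5% higher and 10.6% lower), a share near that of all genes. LM9 was higher in *Col4a5* (log2 fold change 2.50 ± 0.34, adjusted p = 0.00235), *Col20a1* (3.25 ± 0.69, adjusted p = 0.0128), *Col18a1* (1.10 ± 0.29, adjusted p = 0.0278) and *Col8a1* (0.58 ± 0.18, adjusted p = 0.0480). LM9 was lower in *Col15a1* (-4.94 ± 0.82, adjusted p = 0.00526), *Col6a5* (-3.36 ± 0.76, adjusted p = 0.0164), *Col8a2* (-2.78 ± 0.70, adjusted p = 0.0248) and *Col22a1* (-2.27 ± 0.63, adjusted p = 0.0341). The LM1 and LM9 tumours did not overlap in any of the 8, and 22.0% of all genes were called without overlap, nearly all that were called. The calls of *Col4a5* and *Col15a1* held with any 1 tumour left out. The count of 8 fell to 2 without LM1 replicate 1, to 3 without LM1 replicate 3, LM9 replicate 1 or LM9 replicate 2, and to 4 without LM9 replicate 3, fits in which 8.16 to 10.3% of all genes were called. It rose to 13, which included the 8, without HR1 replicate 1. These were 37.1% of the collagens tested, against 45.5% of all genes. None of the 10 fibrillar collagens was called between LM9 and LM1 by edgeR, DESeq2 or limma-voom. None had an unadjusted p-value under 0.05 by edgeR or limma-voom and 1 did by DESeq2, while *Col3a1* (-0.78) was called without HR1 replicate 1 and *Col11a2* (3.43) without HR1 replicate 3.

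*Col20a1*, a FACIT collagen that shares 79 exon bases with the annotated gene BX649560.1 on the same strand, was at 0.532, 0.585 and 0.952 CPM in HR1, 0.378, 0.317 and 0.229 CPM in LM1 and 6.14, 1.33 and 1.42 CPM in LM9. Every LM9 tumour was above the others, LM9 replicate 1 most of all. Against HR1 the log2 fold change of *Col20a1* in LM9 was 2.10 ± 0.65 (adjusted p = 0.0299), and 1.95 without HR1 replicate 1. This call was lost without LM9 replicate 1 (0.99) or HR1 replicate 2 (1.99), with limma-voom and with the replicate number as a block. Against LM1 its log2 fold change in LM9 was 2.14 without LM9 replicate 1, and it was not called without LM1 replicate 1 (3.42) or replicate 3 (3.08).

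Collagen chains are hydroxylated, folded with dedicated chaperones, trimmed outside the cell and cross-linked. Of 52 genes listed for these steps and for collagen receptors and uptake, 48 were tested. In the LM tumours together 12 were lower and 5 higher (35.4%, against 43.6% of all genes), with a median log2 fold change of -0.14. The count of 17 rose to 28 without HR1 replicate 1 (58.3%, against 56.0% of all genes). It was 12 without HR1 replicate 3 or LM1 replicate 3, 10 without LM1 replicate 2, LM9 replicate 2 or LM9 replicate 3 and 11 without LM1 replicate 1 or LM9 replicate 1 (35.0 to 42.7% of all genes were called in these fits). In LM1 alone 11 were lower and 6 higher (35.4%, against 35.5%), in LM9 alone 7 lower and 3 higher (20.8%, against 42.3%), and between LM9 and LM1 4 were lower in LM9 and 5 higher (18.8%, against 22.0%). With library size as the only scaling, LM1 against HR1 gave 9 higher and 9 lower (35.5% of all genes called), and LM9 against LM1 gave 3 higher and 5 lower (22.2% of all genes called).

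Among the 15 genes of prolyl and lysyl modification, 3 were higher and 3 lower in the LM tumours (40.0%, against 43.6% of all genes). *Plod2*, a lysyl hydroxylase of the collagen telopeptides, was at 72.4, 57.7 and 77.4 CPM in HR1, 148 to 166 CPM in LM1 and 148 to 180 CPM in LM9, and was 2.34-fold higher (log2 fold change 1.23 ± 0.13, adjusted p = 0.000273; 1.27 without HR1 replicate 1). *P3h3* and *P3h4*, partners in collagen lysine modification, were lower, with log2 fold changes of -1.37 ± 0.19 and -1.60 ± 0.23 (adjusted p = 0.000720 and 0.000868; -1.08 and -1.40 without HR1 replicate 1). *P3h3* was at 169, 85.8 and 116 CPM in HR1, 24.5 to 28.6 CPM in LM1 and 75.8 to 88.2 CPM in LM9, which overlapped with HR1. Without HR1 replicate 1 it was called lower in LM1 (-1.89) and not called in LM9 (-0.27). The difference between the LM models was 1.62 ± 0.23 on the log2 scale (adjusted p = 0.00282).

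Of the 7 cross-linking genes, 2 were lower and none higher in the LM tumours together (28.6%, against 43.6% of all genes). The cross-linking enzyme gene *Lox* was at 2.13, 26.3 and 5.07 CPM in HR1 and 0.675 to 2.06 CPM in the LM tumours. It was 8.36-fold lower (log2 fold change -3.06 ± 0.64, adjusted p = 0.00547), and the log2 fold change was -3.55 without HR1 replicate 1 and -1.43 without HR1 replicate 2. Its relative *Loxl1* was at 43.8, 24.5 and 10.1 CPM in HR1, 102 to 110 CPM in LM1 and 14.8 to 17.2 CPM in LM9. It was higher in LM1 than in HR1 (log2 fold change 2.02, and 2.62 without HR1 replicate 1). It was lower in LM9 than in LM1 (log2 fold change -2.72 ± 0.44, adjusted p = 0.00468). Of the 9 tested genes of collagen receptors and uptake, 3 were lower and 1 higher (44.4%, near the 43.6% of all genes). The integrin gene *Itga1* was at 26.5 to 38.4 CPM in HR1 and 7.39 to 10.4 CPM in the LM tumours, 3.59-fold lower (log2 fold change -1.84 ± 0.16, adjusted p = 0.000104). *Mrc2*, which encodes the collagen uptake receptor Endo180, was at 224 to 301 CPM in HR1, 358 to 463 CPM in LM1 and 552 to 598 CPM in LM9, and was 1.82-fold higher (log2 fold change 0.87 ± 0.14, adjusted p = 0.00157). Without HR1 replicate 1 the log2 fold changes were -1.93 for *Itga1* and 0.97 for *Mrc2*. The HR1 and LM tumours did not overlap for *Plod2*, *P3h4*, *Lox*, *Itga1* and *Mrc2*, narrowly so for *Lox*. Of all genes 28.3% were called without overlap.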

How the data were processed

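RNA from sorted GFP-positive cells of 9 tumours was sequenced, and the authors used STAR (genome mm10) for alignment and qCount of QuasR to count 5′ ends over exon unions. The deposited values are whole-number counts per gene, not normalized, and the strand setting of the counting was not stated. Replicates were not pooled. Entrez numbers were matched to RefSeq symbols (14085 of 14108). Every listed gene reached 7 counts in at least 3 tumours, and exon lengths came from GENCODE M21. Total counts ranged from 32393958 to 46681945 per tumour, so 3 counts lie under 0.1 CPM.

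Counts were scaled with TMM factors and tested in R 4.3.3 with edgeR 4.0.16 (quasi-likelihood), in 1 model over the 3 groups, on the 14086 genes that passed filterByExpr. Benjamini-Hochberg adjustment covered all tested genes, and calls needed an adjusted p-value under 0.05. Standard errors were the log2 fold change divided by the square root of F. DESeq2 1.42.0, limma-voom (limma 3.58.1), other size factors, no filter, the replicate number as a block and each tumour left out were alternatives. edgeR, DESeq2 and limma-voom were tested on simulated data. Python 3.11.15 with pandas 2.3.3 and scipy 1.17.1 handled the tables.

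The collagens, their classes, the gene lists and the markers were chosen with earlier results of these data known. Named with values per tumour were the 10 collagens of highest level per kilobase, up to 6 per comparison with the largest called change, 1 CPM or more on average and groups that did not overlap, and the partner chains of trimers. Other members were named after their values were seen.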

Additional observations from a re-analysis of the deposited data

Results flagged for a closer look

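The change against HR1 differed between LM1 and LM9 for 8 collagens, by the test of LM9 against LM1 in the same edgeR model. These were 24.2% of the collagens tested, near the 22.0% of all genes called in that comparison. The differences in log2 fold change (LM9 minus LM1) were 2.50 for *Col4a5*, -4.94 for *Col15a1*, 1.10 for *Col18a1*, 3.25 for *Col20a1*, -2.27 for *Col22a1*, -3.36 for *Col6a5*, 0.58 for *Col8a1* and -2.78 for *Col8a2*. With each of the 9 tumours left out in turn, *Col4a5* and *Col15a1* stayed past the threshold, and the other 6 lost it in at least 1 case. The 3 tumours of a model are too few for the test for outlying samples.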

How the results depend on the processing

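Leaving out 1 tumour at a time, the collagens called ranged from 20 to 26 in LM1 and LM9 together versus HR1 (19 with all tumours), 10 to 23 in LM1 (18), 16 to 26 in LM9 (22) and 2 to 13 between LM9 and LM1 (8). The filter was applied anew each time, and 33 to 35 collagens were tested, against 33 with all tumours. The biosynthesis and receptor genes called ranged from 10 to 28 (17), 7 to 30 (17), 7 to 22 (10) and 4 to 20 (9) in the same order. In these fits 35.0 to 56.0%, 22.1 to 52.8%, 26.7 to 55.7% and 8.16 to 45.5% of all genes were called, the highest count of either list and the highest share coming without HR1 replicate 1 in each comparison. In the other fits the collagens called ranged from 17 to 21, 13 to 19, 19 to 24 and 6 to 11, and the share of all genes from 37.2 to 47.9%, 29.8 to 41.5%, 36.0 to 47.3% and 16.3 to 30.6%. Among the named members, 7 differences that were not called changed sign when 1 tumour was left out. *Col1a1* (LM9 versus LM1) ranged from -0.16 to 0.12, *Col15a1* (LM tumours together) from -1.54 to 0.38 and *Col20a1* (LM tumours together) from -0.08 to 0.77 on the log2 scale. *Col6a3* ranged from -0.78 to 0.05 in LM1 and from -0.26 to 0.01 between LM9 and LM1, *Col8a2* in LM1 from -0.37 to 1.04 and *Col26a1* between LM9 and LM1 from -0.07 to 4.38. With limma-voom *Col6a3* was at 0.01 in the LM tumours together and 0.08 in LM1. The cause was not tested.

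The replicate numbers did not pair the tumours: same-numbered tumours had correlated deviations of -0.117 to 0.162. With the replicate number as a block, 17, 13, 19 and 6 collagens were called in the 4 comparisons, and 37.2%, 29.8%, 36.0% and 16.3% of all genes. Counts of under about 10 limit *Col9a3*, *Col22a1* in HR1 and *Col11a1* in the LM tumours, where only large differences are detectable at this depth.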
